A study of Mus musculus with 6 samples.

Results

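The collagen chain genes were taken as every gene of the expression table whose symbol reads Col, a number, a and a number, and 37 of the 15280 genes met this rule. They were grouped by the kind of molecule their chains build, with 9 fibrillar genes, 5 genes of the type IV collagen of basement membranes, 7 FACIT genes (fibril-associated collagens with interrupted helices) and 16 other genes. The 16 others comprised 6 genes of the beaded filament collagen VI, 3 short-chain network genes, 3 transmembrane genes, 2 multiplexin genes, the anchoring fibril gene *Col7a1* and the unclassified *Col28a1*. All 37 had a mean of at least 1 CPM over the 6 libraries, so a filter at that level removed none of them. The authors had already left out genes under 10 fragments in all. Another 8 genes of these classes (*Col2a1*, *Col11a2*, *Col4a4*, *Col9a2*, *Col21a1*, *Col22a1*, *Col13a1* and *Col26a1*) were not analysed here.

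RNA-Seq libraries came from 3 parous BK5.ATF3 females, with 1 mammary tumor (T11035, T11640 and T9232) and the normal gland next to it (M11035, M11640 and M9232) from each mouse, so n = 3 for each tissue. The transgene places ATF3, a stress-induced transcription factor of the ATF/CREB family, under the bovine keratin 5 promoter, which is active in basal epithelial cells. Because both tissues carried it, a difference between them is one of tumor against gland, and no wild-type tissue was compared. Tumors appeared at 6 to 12 months of age and were collected at a length of 1.5 cm. The question addressed here is which collagen chains the tumors expressed at another level than the glands of the same animals.

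Collagens are secreted proteins of the extracellular matrix whose chains wind around each other into a helix, either as identical chains or as chains of different genes. Fibrillar collagens assemble into the fibrils that give connective tissue its strength, FACIT collagens bind to the surface of those fibrils, and type IV collagen forms the sheet-like network on which mammary epithelium, adipocytes and vessels rest. In mammary tumors, fibrillar collagen made by stromal fibroblasts is known to accumulate around epithelial nests. Because the libraries are of bulk tissue, fewer cells of a type and less RNA per cell cannot be told apart.

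Promoter windows were available from RefSeq (GRCm38.p6) for 31 of the 37 genes, as 34 windows that run from 250 bases before to 50 bases after a transcript start. The letters TGACGTCA, the cAMP response element that proteins of the ATF/CREB family are known to bind, were found in 1 of the 34 windows (2.94%, against 1.79% of 32851 windows of all genes), and TGANTCA, the AP-1 element, in 1 (2.94%, against 7.81%). Both strands were searched. The windows with these letters belong to *Col24a1* and *Col6a1*. The stretches that hold them are printed with stretches of *Col1a2*, *Col4a1* and *Col4a2* that hold CCAAT, a common promoter element found in 38.2% of the 34 windows and 37.4% of all windows, because these genes carry the results on chain pairs. Each is 30 bases, 5′ to 3′ on the strand of its gene, located on mm9, with the element in capitals.
Col24a1, chr3:144955418-144955447, plus strand: tccgtgtttagTGACGTCAttgcaagtcag
Col6a1, chr10:76188861-76188890, minus strand: tgctgatgctgTGACTCActcagctttgag
Col1a2, chr6:4455497-4455526, plus strand: aaaagaatggaaCCAATttaagaagccccg
Col4a1, chr8:11312954-11312983, minus strand: tgcttgcccgggATTGGcgagccaaggggc
Col4a2, chr8:11312761-11312790, plus strand: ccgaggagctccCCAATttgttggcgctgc
The element begins at -7 from the start in *Col24a1*, -90 in *Col6a1*, -109 in *Col1a2*, -145 in *Col4a1* and -32 in *Col4a2*. Here the RefSeq transcript start of the window is counted as 0. Gene coordinates given elsewhere are those of GENCODE vM1, which start further upstream for *Col1a2* and *Col6a1*. The printed stretches of these genes therefore lie within their GENCODE spans. In *Col4a1* the letters ATTGG are CCAAT on the opposite strand. GGGCGG, the GC box, was in 61.8% of the 34 windows and in 35.7% of all windows. TATAAA was in 8.82% and 13.6%. A match of letters is a description and not a binding site.

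Depth lay between 4750989 and 7806908 fragments on genes per library, where a floor of 3 fragments corresponds to 0.393 to 0.610 CPM. CPM are fragments scaled to the effective library size. Where 3 values of a tissue are given, those of the glands stand in the order M11035, M11640, M9232, and those of the tumors follow the same order of mice. Only *Col8a2*, *Col19a1* and *Col28a1* had a library at or under the floor. *Atf3* itself was at 4.47, 8.09 and 22.6 CPM in the glands and at 13.4, 18.3 and 19.3 CPM in the tumors (limma log2 fold change 0.80, adjusted p = 0.223), and the sources used here do not say whether fragments of the transgene count toward it. In glands M11035 and M11640, 10 skeletal muscle markers summed to 4379 and 1667 CPM, led by *Myh4*, against 5.75 CPM in M9232 and 9.70 to 22.5 CPM in the tumors. Counts of collagen genes are therefore also given with M9232 as the sole gland.

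Most collagen chain genes were expressed at higher levels in the tumors than in the glands. With limma on log2(CPM + 0.5) and Benjamini-Hochberg adjustment over all 15280 genes, 26 of the 37 genes passed an adjusted p of 0.05 and a 2-fold change, as did 28.2% of all genes. Of these, 22 were upregulated, against 14.5% of all genes, and 4 were downregulated (*Col9a1*, *Col6a5*, *Col6a6* and *Col4a6*), against 13.7%. The median log2 fold change of the 37 genes was 1.97, while that of all genes was -0.0028. All 3 tumors were above all 3 glands for 23 genes and below them for 6, so the tissues did not overlap for 29 genes, compared with 54.0% of all genes (27.6% above and 26.3% below). With M9232 as the sole gland, 23 genes were upregulated and 3 downregulated, where the lone gland is assumed to vary like the tumors.

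**Figure D1:**
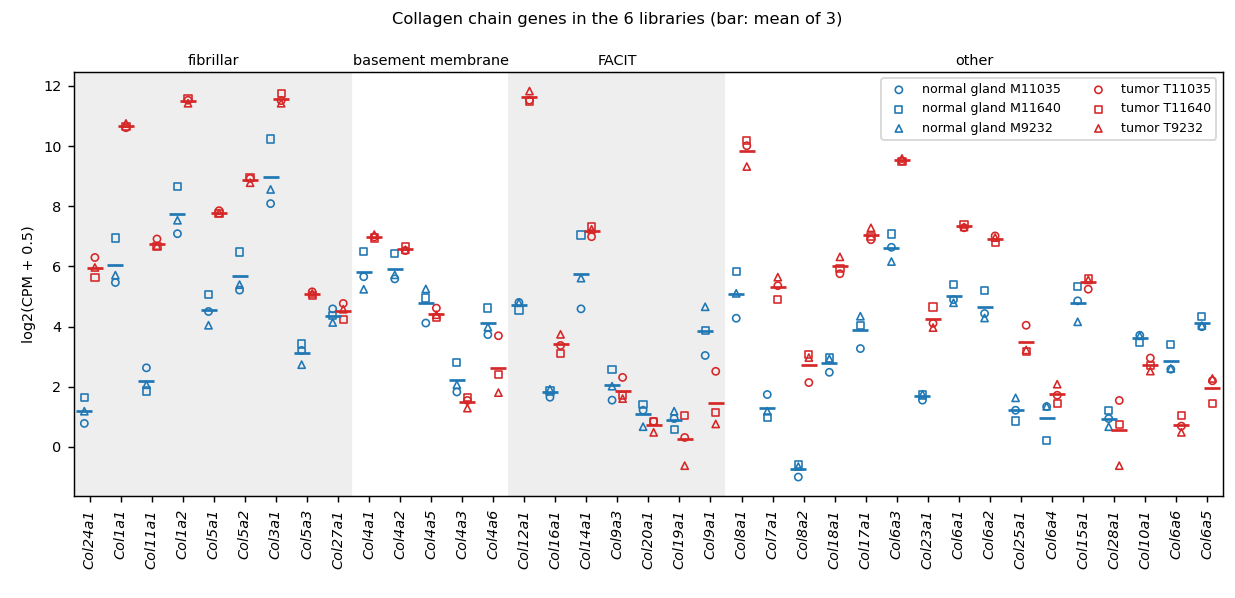
Level of each of the 37 collagen chain genes in the 6 libraries, as log2(CPM + 0.5) on the y axis, with genes by class on the x axis. Blue symbols are normal glands, red symbols are tumors, each symbol shape is 1 mouse and bars are means of 3. Tumors lie above all glands for 23 genes and below all glands for 6.

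Among the 9 fibrillar genes, 8 were upregulated and *Col27a1* did not pass, with a class median log2 fold change of 3.25. *Col1a1* (chr11:94797538-94814356, mm9), which encodes the α1 chain of type I collagen, was at 43.7, 123 and 51.8 CPM in the glands and at 1564, 1618 and 1725 CPM in the tumors. The tumors were close to each other and all far above the glands, a 22.5-fold rise of the mean (log2 fold change 4.63 ± 0.33 SE, limma adjusted p = 2.00e-05). *Col1a2* (chr6:4454814-4491543), the α2 chain of the same molecule, was at 136, 402 and 185 CPM in the glands and at 2947, 3042 and 2748 CPM in the tumors, a 12.1-fold rise (3.75 ± 0.34, adjusted p = 6.19e-05). *Col3a1* (chr1:45368383-45406551), the chain of type III collagen that shares fibrils with type I in soft tissue, was at 272, 1206 and 377 CPM in the glands and at 2919, 3442 and 2748 CPM in the tumors. Gland M11640 had by far the highest *Col3a1* level of the glands, although each tumor was above it, and the mean rose 4.91-fold (2.60 ± 0.47, adjusted p = 0.00249). Without M11640 the log2 fold change of *Col3a1* was 3.24.

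The minor fibrillar chains, which type V and type XI collagen contribute to the core of fibrils and which limit their diameter, rose as well. *Col5a1* was at 22.2, 33.0 and 16 CPM in the glands and at 231, 215 and 218 CPM in the tumors (log2 fold change 3.25). *Col5a2* rose from 36.6, 88.7 and 41.6 CPM to 486, 492 and 440 CPM (3.19), and *Col5a3* from 8.74, 10.2 and 6.16 CPM to 35.2, 32.1 and 33.9 CPM (1.97). For each of the 3 type V genes, the lowest tumor was at more than 3 times the level of the highest gland, and the adjusted p from limma ran from 2.27e-05 to 1.79e-04. *Col11a1* (chr3:113733458-113923636), best known from cartilage, was low in every gland at 5.69, 3.14 and 3.69 CPM and reached 120, 101 and 103 CPM in the tumors, a 25.8-fold rise (4.57 ± 0.23, adjusted p = 3.41e-06). *Col24a1* (chr3:144955436-145214975), a fibrillar gene known from developing bone and cornea and the gene with the cAMP response element printed here, was at 1.22, 2.64 and 1.78 CPM in the glands and at 78.2, 48.9 and 62.0 CPM in the tumors. The mean rose 33.5-fold (4.76 ± 0.28, adjusted p = 7.62e-06), and every tumor was far above every gland.

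*Col27a1*, the other fibrillar gene known from cartilage, was at 23.6, 20.3 and 17.1 CPM in the glands and at 26.8, 18.3 and 23.4 CPM in the tumors. The tissues overlapped, and the 95% confidence interval of its log2 fold change was -0.32 to 0.64 (estimate 0.16, limma adjusted p = 0.578), which leaves out a 2-fold change in either direction.

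Of the 7 FACIT genes, 3 were upregulated, 1 was downregulated and 3 did not pass, with a class median of -0.18. These counts are 42.9% and 14.3% of the class, against 14.5% and 13.7% of all genes. *Col12a1* (chr9:79446798-79566638), whose product coats type I fibrils in dense connective tissue, was at 27.4, 23.0 and 27.2 CPM in the glands and at 2947, 2886 and 3638 CPM in the tumors. This 122-fold rise (log2 fold change 6.90 ± 0.15, limma adjusted p = 1.91e-07) was the largest of the 37 genes and ranked 48 among the 15280 genes of the table. The glands hardly differed from each other and every tumor was far above them. *Col16a1*, a FACIT gene of several connective tissues, rose from 2.64, 3.14 and 3.28 CPM to 9.86, 8.13 and 12.9 CPM (1.60 ± 0.25, adjusted p = 0.00131). *Col14a1*, whose product binds the same kind of fibril as that of *Col12a1*, was at 23.6, 131 and 48.4 CPM in the glands and at 127, 161 and 150 CPM in the tumors. Gland M11640 was above tumor T11035, so the tissues overlapped, and the call was at the edge of the threshold (1.44 ± 0.51, adjusted p = 0.0498). This call was lost with edgeR (adjusted p = 0.120) and with DESeq2 (0.0581), and also when limma was run without M11035 (0.104), M9232 (0.0942), T11035 (0.0950), T11640 (0.143) or T9232 (0.129). In limma it was lost as well with a pseudocount of 0.1 (adjusted p = 0.0523) or 1 (0.0502). The filter at a mean of 1 CPM had the same effect (0.0511). Without M11640 the log2 fold change was 2.09.

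*Col9a1*, a chain of the collagen IX that decorates cartilage fibrils, was downregulated, with 7.73, 14.2 and 24.8 CPM in the glands and 5.21, 1.70 and 1.20 CPM in the tumors. All tumors were below all glands, and the mean was 5.76-fold lower (-2.39 ± 0.53, limma adjusted p = 0.00704). The log2 change within a mouse was -0.53, -2.74 and -3.89 in the same order, so the mouse of T11035 differed least. *Col9a3*, the other measured chain of collagen IX, was at 2.44 to 5.45 CPM in the glands and 2.55 to 4.47 CPM in the tumors and did not pass (adjusted p = 0.717). *Col19a1* and *Col20a1* were under 2.2 CPM in every library and did not pass.

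The type IV genes, whose products form the network of basement membranes, moved little and in both directions. Of 5 genes, 1 was upregulated, 1 was downregulated and 3 did not pass, with a median of -0.34. Of all genes, 14.5% were upregulated and 13.7% downregulated. *Col4a1* (chr8:11198423-11312826) and *Col4a2* (chr8:11312805-11449287) encode the chains found in nearly all basement membranes. *Col4a1* was at 50.02, 89.9 and 37.3 CPM in the glands and at 126, 123 and 133 CPM in the tumors, a 2.15-fold rise (1.19 ± 0.28, limma adjusted p = 0.00984) that fell under the 2-fold threshold without M9232 (log2 fold change 0.92). *Col4a2* was at 47.6, 85.7 and 52.3 CPM in the glands and at 91.7, 100 and 93.5 CPM in the tumors. Every tumor was above every gland, but the change was under 2-fold (0.67, 95% confidence interval 0.16 to 1.17, adjusted p = 0.0408).

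*Col4a6*, a chain of the basement membrane under some epithelia and around smooth muscle, was downregulated, from 12.8, 24.1 and 15.3 CPM in the glands to 12.5, 4.85 and 3.00 CPM in the tumors (-1.47 ± 0.46, limma adjusted p = 0.0320). Tumor T11035 was almost level with the gland of its own mouse, while the other two tumors were well below theirs (ratios of tumor to gland of 0.973, 0.201 and 0.196). The call was lost with edgeR (adjusted p = 0.0512), without M11640 (0.101), T11640 (0.109) or T9232 (0.107), and with M9232 as the sole gland (0.247). *Col4a5*, its partner chain, was at 16.9 to 37.6 CPM in the glands and 19.1 to 24.0 CPM in the tumors and did not pass (adjusted p = 0.373). *Col4a3*, a chain of the kidney filter, was under 6.5 CPM throughout and below the glands in all 3 tumors, but did not pass (-0.74, adjusted p = 0.0996).

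Collagen VI builds beaded filaments near basement membranes and around adipocytes and muscle fibres, and its 6 genes split in direction. The 3 chains of the common collagen VI molecule were upregulated. *Col6a1* was at 29.3, 41.6 and 27.2 CPM in the glands and at 156, 169 and 158 CPM in the tumors (log2 fold change 2.30), *Col6a2* rose from 21.1, 36.5 and 19 CPM to 129, 110 and 124 CPM (2.28), and *Col6a3* from 99, 135 and 71.1 CPM to 725, 712 and 770 CPM (2.90). In all 3 the tumors were close together and well above every gland, with limma adjusted p from 2.33e-05 to 1.46e-04. The later-described chains, which can take the place of the α3 chain, went the other way or stayed low. *Col6a5* was at 15.5, 19.7 and 15.9 CPM in the glands and 4.09, 2.23 and 4.35 CPM in the tumors (-2.15 ± 0.28, adjusted p = 4.27e-04). *Col6a6* was at 5.49, 10.1 and 5.61 CPM in the glands and 1.12, 1.57 and 0.899 CPM in the tumors (-2.12 ± 0.33, adjusted p = 0.00113). For both genes all tumors were below all glands. Their transcripts are 96.9% identical over 572 bp, so the counting could have split fragments between them. *Col6a4* stayed under 3.8 CPM, with every tumor above every gland, and did not pass (0.78, adjusted p = 0.145).

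The short-chain genes build hexagonal networks. *Col8a1* (chr16:57624371-57754850), known from vessel walls and the corneal endothelium, was at 18.9, 56.3 and 33.9 CPM in the glands and at 1032, 1156 and 639 CPM in the tumors. The tumors were 25.9-fold higher on average (4.77 ± 0.37, limma adjusted p = 3.05e-05) and spread wider than those of any fibrillar gene, with an SD of 0.45 on the log2(CPM + 0.5) scale. Its partner *Col8a2* was nearly undetected in the glands, with 2 fragments over the 3 libraries, and had 130 fragments over the 3 tumors at 3.91, 7.86 and 7.34 CPM. The ratio of *Col8a2* was 60.4, with a 95% counting interval of 16.4 to 504 that covers counting error only. *Col10a1*, the collagen of hypertrophic cartilage, was at 12.6, 10.6 and 12.4 CPM in the glands and at 7.26, 6.03 and 5.24 CPM in the tumors. All its tumors were below the glands, but the change was under 2-fold (-0.90, adjusted p = 0.0107), and only without T11035 did it pass, at -1.01. Exons of *Col10a1* overlap those of *Nt5dc1*, so part of its fragments may belong to that gene.

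The anchoring fibril gene and the 3 transmembrane collagen genes were all upregulated. *Col7a1*, the collagen of the anchoring fibrils under skin epithelium, rose from 2.85, 1.49 and 1.78 CPM to 40.6, 29.6 and 49.4 CPM, 19.6-fold (4.0 ± 0.28, limma adjusted p = 1.81e-05). *Col17a1*, the hemidesmosomal collagen of basal keratinocytes, rose from 9.15, 15.9 and 19.8 CPM to 118, 126 and 155 CPM, 8.91-fold (3.17 ± 0.27, adjusted p = 4.60e-05). *Col23a1*, also a membrane collagen, reached 16.7, 24.6 and 15.1 CPM from 2.44 to 2.87 CPM (2.56), and *Col25a1*, a membrane collagen best known from neurons, reached 16, 8.52 and 8.84 CPM from 1.32 to 2.60 CPM (2.24). Markers of squamous epithelium were also higher in the tumors, where 14.5% of all genes were upregulated. All 10 markers in the list were upregulated, with sums of 15.9 to 18.2 CPM in the glands and 2750 to 4524 CPM in the tumors, where *Lor* was at 0 in the glands. Of 10 epithelial markers 8 were upregulated, with sums of 246 to 531 CPM against 2481 to 2891 CPM, and all 10 hair follicle markers were upregulated, with sums of 4.62 to 8.13 CPM against 883 to 1766 CPM. *Tchh* made up most of the hair follicle sum in the tumors, at 893, 1468 and 721 CPM. In the glands 8 of the 10 hair follicle markers were at or under the floor in every library. The part of these marker lists in the collagen results was not tested.

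The multiplexins carry endostatin or an endostatin-like fragment at their end and sit in basement membrane zones. *Col18a1* rose from 5.08, 7.27 and 7.11 CPM to 53.6, 60.7 and 79.3 CPM, 9.94-fold (3.21 ± 0.22, limma adjusted p = 1.61e-05). *Col15a1* was at 28.5, 39.97 and 17.4 CPM in the glands and 37.4, 48.2 and 46.5 CPM in the tumors, which overlapped, and did not pass (0.68, adjusted p = 0.0871), although it did with M9232 as the sole gland (1.31). Counted as basement membrane genes, the multiplexins brought that class to 2 upregulated and 1 downregulated of 7. *Col28a1* was under 2.5 CPM in every library and did not pass (adjusted p = 0.599).

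**Figure D2:**
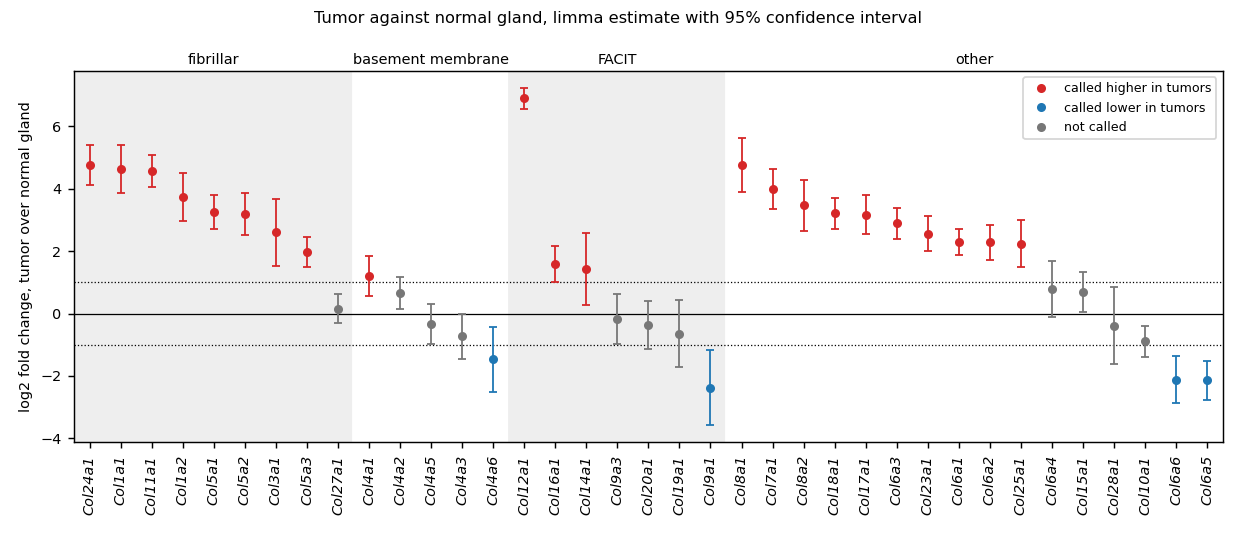
Log2 fold change of each collagen chain gene, tumor over normal gland (y axis), with genes by class on the x axis. Points are limma estimates from 3 tumors and 3 glands, error bars are 95% confidence intervals, and dotted lines mark a 2-fold change. Of the 37 genes, 22 are called higher (red), 4 lower (blue) and 11 are not called (gray), with *Col12a1* at 6.90 and *Col9a1* at -2.39 as the extremes.

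Levels were compared between genes per kilobase of merged exons (CPM per kb, as a mean ± SD over 3 libraries). In the glands *Col3a1* led with a level of 73.7 ± 61.0 CPM per kb, followed by *Col1a2* (19.8 ± 11.7), *Col1a1* (11.1 ± 6.62), *Col14a1* (9.67 ± 8.05), *Col4a2* (9.34 ± 3.14) and *Col4a1* (8.66 ± 4.02). In every gland *Col3a1* was highest and *Col1a2* next (32.4 against 11.2, 144 against 33.1 and 44.9 against 15.2 CPM per kb). The order of *Col1a1* and the other genes after these differed between glands. In M11035 *Col1a1* (6.66) was below *Col6a3* (8.29), *Col4a1* (7.34) and *Col4a2* (7.19), among others. In M11640 it was just below *Col14a1* (18.70 against 18.73). In the tumors *Col3a1* still led at a level of 362 ± 43.1 CPM per kb, ahead of *Col1a1* (249 ± 12.5), *Col1a2* (240 ± 12.3), *Col12a1* (207 ± 27.4), *Col8a1* (184 ± 52.9) and *Col6a3* (61.5 ± 2.54). *Col3a1* was highest in each tumor, and the order of *Col1a1*, *Col1a2*, *Col12a1* and *Col8a1*, all above *Col6a3*, differed between tumors. *Col12a1* moved from rank 20 to rank 4 of the 37 genes and *Col11a1* from rank 29 to rank 15, while *Col14a1* moved from rank 4 to rank 11 and *Col4a2* from rank 5 to rank 14. Merged exons include those of rare transcripts, so the level of a gene with many annotated transcripts is understated. Those of *Col1a2* span 12.1 kb and those of *Col1a1* 6.56 kb. In CPM, *Col1a2* was above *Col1a1* in every tumor, so the order of these genes per kilobase rests on this length. The lead of *Col3a1* in the tumors also rests on exon length. In CPM *Col3a1* was highest only in T11640, at 3442 CPM. *Col1a2* was slightly above *Col3a1* in T11035 (2947 against 2919 CPM) and T9232 (2748.5 against 2747.9 CPM). The mean of *Col12a1* over the tumors was higher than that of *Col3a1* (3157 against 3037 CPM).

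The collagen genes took a far larger part of the tumor libraries. Their share of all fragments on genes was 0.104%, 0.265% and 0.119% in the glands and 1.48%, 1.45% and 1.37% in the tumors. The means were 0.163% ± 0.0894 and 1.43% ± 0.0587 (SD, n = 3), a ratio of 8.80, and the tissues did not overlap (exact permutation test, two-sided p = 0.1, the smallest that 3 against 3 allows). Within a mouse the share rose 14.3-fold in the mouse of T11035, 5.45-fold in that of T11640 and 11.5-fold in that of T9232. By class the ratio of mean shares was 27.8 for FACIT, 8.12 for fibrillar, 7.81 for other and 1.47 for basement membrane genes, each also at the smallest p of 0.1 (adjusted p = 0.1 over the 5 shares). Without M11640 the fibrillar ratio was 13.4. The basement membrane share rose only 1.04-fold in the mouse of T11640, and its tissues overlapped (exact permutation p = 0.2) when the 100 most abundant genes that are no collagen genes were left out.

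Within the collagen fragments, FACIT genes took a larger part in the tumors and type IV genes a smaller part. FACIT genes held 6.70% to 9.20% of the collagen fragments in the glands and 20.7% to 26.8% in the tumors, and basement membrane genes 8.80% to 13.0% in the glands and 1.69% to 1.82% in the tumors. Fibrillar genes held 54.8% to 70.3% in the glands and 56.9% to 60.9% in the tumors, which overlapped. *Col12a1* alone went from a mean of 1.96% ± 0.982 to 22.0% ± 3.18, and *Col1a1* from 4.42% ± 0.127 to 11.4% ± 0.644. *Col3a1* went from 34.5% ± 9.27 down to 21.1% ± 2.01 although its CPM rose. *Col12a1*, *Col3a1*, *Col1a2* and *Col1a1* together held 73.6% to 76.3% of the collagen fragments in the tumors and 47.8% to 65.3% in the glands. Longer transcripts give more fragments, and a larger share of 1 gene lowers those of the others, so these shares are not levels per molecule.

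**Figure D3:**
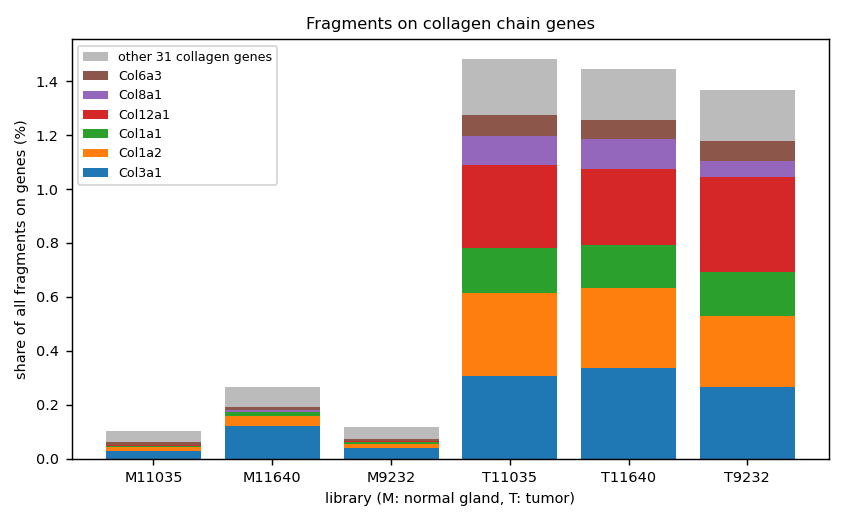
Share of all fragments on genes that fell on collagen chain genes (y axis, %) in each library (x axis), stacked by gene. The 3 tumors stand at 1.37% to 1.48% and the 3 glands at 0.104% to 0.265%, and *Col12a1* (red) holds 19.5% to 25.6% of the collagen fragments in the tumors and 0.855% to 2.74% in the glands.

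To see whether chains of 1 molecule kept their proportion, the ratio of fragments was formed within each library, which cancels the library's scaling. Of 11 pairs, *Col4a3* with *Col4a4* and *Col8a1* with *Col8a2* gave no ratio, because *Col4a4* was not analysed here and *Col8a2* was at or under 3 fragments in the glands. For 6 of the remaining 9 pairs the tissues did not overlap, each with p = 0.1 in the two-sided exact permutation test, the smallest possible, and an adjusted p of 0.15 over the 9 pairs. Among single genes 54.0% did not overlap, and no such share was formed over pairs of all genes. The ratio of *Col1a1* to *Col1a2* was 0.322, 0.305 and 0.280 in the glands and 0.531, 0.532 and 0.628 in the tumors, a 1.86-fold higher ratio. *Col4a1* to *Col4a2* went from 1.051, 1.048 and 0.715 to 1.37, 1.23 and 1.42. The ratio of *Col6a3* to *Col6a1* was 2.61 to 3.38 in the glands and 4.22 to 4.86 in the tumors. Each of these 3 pairs joins chains of the same molecule, and in each the tumors had the higher ratio.

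No shift was detected for *Col6a1* to *Col6a2* (log2 difference 0.020, exact permutation p = 1) or *Col5a1* to *Col5a2* (0.081, p = 0.8), and *Col4a5* to *Col4a6* overlapped between the tissues (1.22, p = 0.2). The remaining pairs compare different molecules of the same tissue. *Col3a1* to *Col1a1* was 6.21, 9.83 and 7.27 in the glands and 1.87, 2.13 and 1.59 in the tumors, 4.12-fold lower. *Col14a1* to *Col12a1* was 0.859, 5.72 and 1.78 in the glands and 0.0429, 0.0559 and 0.0412 in the tumors, a log2 difference of -5.48 that was -4.74 without M11640 and -6.11 without M11035. *Col15a1* to *Col18a1* was 5.60, 5.50 and 2.44 in the glands and 0.698, 0.795 and 0.586 in the tumors, so more fragments fell on *Col15a1* in each gland and on *Col18a1* in each tumor.

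**Figure D4:**
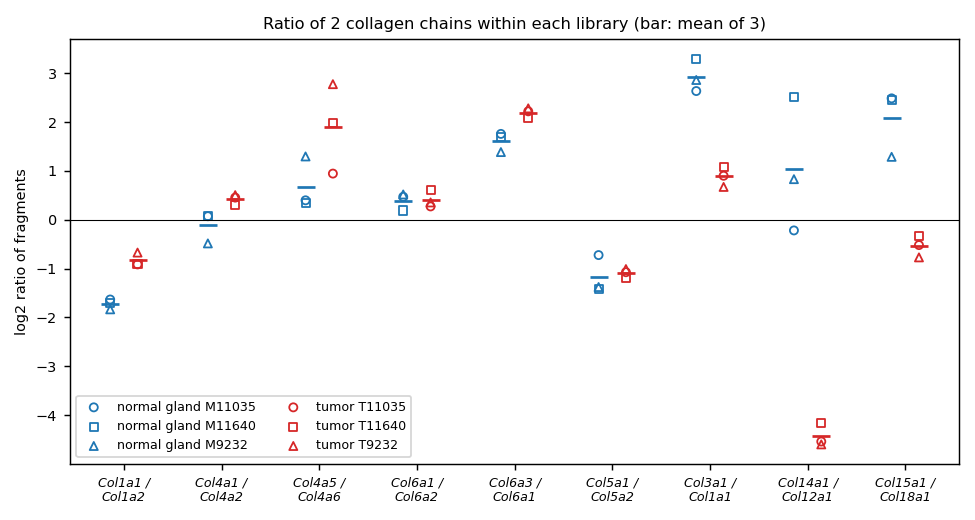
Log2 ratio of the fragments of 2 collagen chains within a library (y axis) for the 9 pairs tested (x axis). Blue symbols are glands, red symbols are tumors, each shape is 1 mouse and bars are means of 3. Tumors and glands do not overlap for 6 pairs (among single genes, 54.0% do not overlap), and the largest shift is that of *Col14a1* to *Col12a1*.

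Several of the genes lie next to each other in the genome (mm9, GENCODE vM1), and neighbours did not always move alike. *Col4a1* and *Col4a2* lie head to head on chromosome 8 with starts 21 bp apart, so the genes overlap by 22 bp, and both printed CCAAT elements lie beside these starts. Their log2 fold changes were 1.19 and 0.67. *Col4a6* and *Col4a5* lie head to head on chromosome X with starts 1309 bp apart, and their values were -1.47 and -0.34. *Col3a1* and *Col5a2*, tail to tail on chromosome 1 at a distance of 24615 bp, both rose (2.60 and 3.19). *Col6a2* and *Col6a1*, 85162 bp apart on chromosome 10, rose to nearly the same extent (2.28 and 2.30). The chain of *Col6a6*, *Col6a5* and *Col6a4* on chromosome 9, with gaps of 27985 and 28811 bp, held 2 downregulated genes and 1 that did not pass (-2.12, -2.15 and 0.78).

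Fibroblasts, the main source of fibrillar collagen in most tissues, were followed through 14 markers, of which 5 were upregulated, 2 downregulated and 7 did not pass, with a median log2 fold change of 0.72. Their summed level was 1440, 4052 and 2627 CPM in the glands and 5611, 6544 and 7952 CPM in the tumors. *Postn* rose the most (3.42) and made up most of the sum in the tumors but not in the glands, and *Gsn* fell the most (-2.82). *Dcn* had the highest mean CPM of this list in the glands. It was at 248, 1258 and 656 CPM in the glands and 625, 529 and 739 CPM in the tumors and did not pass (0.086, limma adjusted p = 0.907). Gland M11640 had the highest fibroblast sum of the glands and also the highest level of 7 of the 9 fibrillar genes. It was the highest gland for 31.7% of all genes. Its sums of adipocyte, endothelial and Schwann cell markers were also the highest of the glands. M9232 had the highest sums of epithelial, chondrocyte and bone, and pericyte and smooth muscle markers. All 12 adipocyte markers were downregulated, with sums of 5592 to 10807 CPM in the glands and 175 to 256 CPM in the tumors. Of 12 listed chondrocyte and bone markers 7 were analysed. Of these 2 were upregulated, with sums of 60.3 to 77.8 CPM in the glands and 73.4 to 103 CPM in the tumors, led by *Runx2*. *Ibsp* rose the most (4.17), from 0.610 CPM or less in each gland, at or under the floor. *Sox9* was the lowest (-0.57, limma adjusted p = 0.118), and *Sp7* was at 0 in the glands. Endothelial markers, of which 3 of 10 were downregulated, summed to 386 to 523 CPM in the glands and 233 to 316 CPM in the tumors, with *Emcn* highest (0.28, not passing) and *Tek* lowest (-1.35). Pericyte and smooth muscle markers, 1 upregulated and 2 downregulated of 10, summed to 535 to 761 CPM and 369 to 483 CPM. For 8 Schwann cell markers (2 upregulated, 3 downregulated) the sums were 166 to 258 CPM and 135 to 256 CPM. Of all genes, 14.5% were upregulated and 13.7% downregulated, while the pericyte and smooth muscle list stood at 10% and 20%. The part of these cell types in the collagen results was not tested.

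The genes that process collagen were followed in 7 lists, to set the chains beside the enzymes that act on them. Of all genes, 14.5% were upregulated and 13.7% downregulated. In the list of procollagen folding and modification, 11 of 19 genes were upregulated and 1 downregulated, with a median of 1.23. *P4ha3*, a subunit of prolyl 4-hydroxylase, which stabilizes the collagen helix, rose the most, from 5.08, 5.78 and 1.92 CPM to 66.6, 51.2 and 62.6 CPM (3.78), and *Glt25d2*, a collagen galactosyltransferase, was the lowest (-1.57, limma adjusted p = 0.00489). Of 7 genes of procollagen cleavage 4 were upregulated (median 1.28), led by *Bmp1*, the enzyme that removes the C-propeptide, at 6.71, 13.2 and 5.47 CPM in the glands and 53.0, 54.4 and 59.2 CPM in the tumors (2.74). The lowest of that list, the enhancer gene *Pcolce2*, did not pass (-0.33). Among 6 crosslinking genes 3 were upregulated (median 1.97). *Loxl2*, a lysyl oxidase, rose from 19.1, 39.5 and 19.8 CPM to 245, 279 and 296 CPM (3.44), and *Tgm2* was the lowest and did not pass at 2-fold (-0.81).

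The other lists hold genes whose products bind or cut collagen. Of 10 receptor genes 4 were upregulated (median 0.56), with the uptake receptor *Mrc2* highest (2.39) and the integrin gene *Itga10* lowest (-0.61, not passing). Of 12 small leucine-rich proteoglycans, which sit on collagen fibrils, 3 were upregulated and 2 downregulated (median 0.25), with *Aspn* highest (3.34) and *Prelp* lowest (-1.95). These counts are 25% and 16.7% of the list, against 14.5% and 13.7% of all genes. Of 17 basement membrane partners of type IV collagen, 7 were upregulated and 1 downregulated (median 0.96). The laminin chain gene *Lama2* was the lowest there (-1.45). Of 8 collagen-degrading proteases 7 were upregulated (median 2.0). *Mmp13*, a collagenase, was at 11.0, 3.30 and 11.1 CPM in the glands and at 688, 721 and 812 CPM in the tumors (6.54), and *Fap* was the lowest (0.032, not passing). *Dcn*, *Lum* and *Fap* were in these lists and in the fibroblast list.

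**Figure D5:**
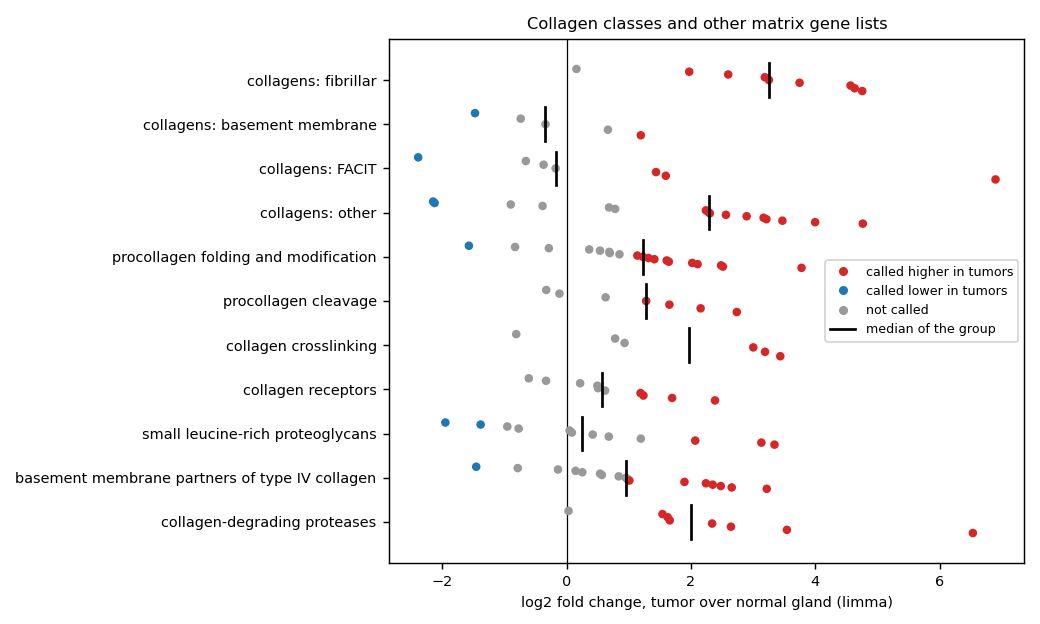
Log2 fold change, tumor over normal gland (x axis), of the genes of each collagen class and of 7 lists of other matrix genes (y axis). Each point is 1 gene from the limma fit of 3 tumors and 3 glands (red called higher, blue called lower, gray not called), and black bars are medians, from -0.34 for basement membrane collagens to 3.25 for fibrillar collagens.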

How the data were processed

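RNA-Seq data of 6 libraries were used, 3 tumors and 3 normal glands of the same mice, grouped by the tissue in the labels. Read alignment to mm9 (TopHat2 2.0.3) and fragment counting on RefSeq genes (HTSeq 0.5.3p9) were done by the authors, who left out genes under 10 fragments in all. The values deposited by the authors are a normalized expression signal, in CPM on the effective library size of edgeR 3.6.1. All values (100%, tolerance 0.02) were whole multiples of 1 step per library, so fragments could be recovered. The test was two-sided, on log2(CPM + 0.5), by limma 3.58.1 (R 4.3.3, trend option), with Benjamini-Hochberg adjustment over 15280 genes. As alternatives, the recovered fragments were tested with edgeR 4.0.16, which called 4462 genes where limma called 4309, and with DESeq2 1.42.0. The unit was recorded as a signal because library totals differ in these CPM, and the planned test for CPM was kept. The limma fit was tested on simulated data.

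Any collagen gene could be named, and of each other list the highest and lowest gene, for cell types also the most abundant. 1 gene under this rule is not reported here. The members and lists were chosen with earlier results of these data known. The 2 libraries of a mouse pair by design (same animal). Their deviations from the group means correlated at r = 0.107, 0.151 and 0.0168 over 14712 genes, and the fit with the mouse as a block was an alternative. No pair of libraries of 1 tissue were copies (lowest chi-square per degree of freedom 12.4). Positions came from GENCODE vM1 for 37 of 37 genes, and similar transcripts from BLAST 2.17.0 (at least 95% identity over 500 bp). The strand setting of the counting is not given in the sources used here, so overlapping exons are named as uncertain. Counting intervals and floors cover counting error only.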

Additional observations from a re-analysis of the deposited data

How the results depend on the processing

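The collagen counts moved little with the processing. Over the pseudocounts of 0.1 and 1, the filter at a mean of 1 CPM, the plain library total, the replicate block, edgeR with either scaling, DESeq2, each library left out and M9232 as the sole gland (chosen after seeing the data), 20 to 23 genes were upregulated and 3 to 5 downregulated. The replicate block, with the mouse as a term, gave 22 upregulated and 4 downregulated collagen genes and changed no call of a collagen gene, and it gave 3 downregulated genes in the other matrix lists. In the exact sign-flip test over the 3 mice, the collagen share differed by 1.27 percentage points with p = 0.25, the smallest possible. Genes called upregulated in the other matrix lists numbered 39, and 35 to 45 with 1 library left out. Genes called downregulated in these lists numbered 4, and 3 to 7 with 1 library left out (7 without M11035). The log2 difference of *Col6a1* to *Col6a2* ran from -0.081 to 0.090 and that of *Col5a1* to *Col5a2* from -0.043 to 0.31 with 1 library left out, so neither has a direction. Among genes that did not pass, *Col9a3* ran from -0.42 to 0.086 (the latter without M11640) and *Col28a1* from -0.88 to 0.20 (the latter without T9232) with 1 library left out, and *Col20a1* was at 0.057 with M9232 as the sole gland. The cause was not tested. With 3 libraries a tissue, the exact test of a single value cannot go below p = 0.1. At this depth, genes under about 2 CPM rest on few fragments.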

Other observations

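The spread among the glands and among the tumors was compared by the SD over 3 libraries on the log2(CPM + 0.5) scale. It was smaller in the tumors for 24 of the 37 genes (64.9%), near the 57.6% of all genes. By class these were 8 of 9 fibrillar, 4 of 5 basement membrane, 3 of 7 FACIT and 9 of 16 other genes. The median SD of the fibrillar genes was 0.51 in the glands and 0.09 in the tumors, and that of all genes was 0.28 and 0.24. Gland M11640 was the highest gland for 24 of the 37 genes, against 31.7% of all genes, and for 4 of the 5 type IV genes. *Col3a1* and *Col14a1* had the widest spread in the glands (SDs of 1.13 and 1.23), and in the tumors they had SDs of 0.17 and 0.18. *Col12a1* was among the exceptions, with SDs of 0.14 in the glands and 0.18 in the tumors.

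Some ratios of chains were formed after the values had been seen and carry no test. *Col6a5* to *Col6a3*, an alternative chain against the α3 chain of collagen VI, was 0.146 to 0.223 in the glands and 0.00313 to 0.00565 in the tumors, 37.1-fold lower. *Col6a6* to *Col6a3* was 43.5-fold lower and *Col4a6* to *Col4a1* 6.83-fold lower. *Col27a1* to *Col1a1* was 0.166 to 0.540 in the glands and 0.0113 to 0.0171 in the tumors, while *Col24a1* to *Col1a1* overlapped between the tissues at 0.0215 to 0.0343 and 0.0302 to 0.04998.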
